A study of Rattus norvegicus with 16 samples.

Results

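The genes described here were 10 integrin subunits of leukocytes, measured in rat whole blood: the alpha chains Itgal, Itgam, Itgax, Itga4, Itga5, Itga6 and Itgae and the beta chains Itgb2, Itgb1 and Itgb7. They were chosen by symbol, and each symbol matched 1 entry, which made 10 of the 18031 genes listed for all 16 libraries. The libraries formed a single group, saline controls, from adult male Sprague-Dawley rats aged 85 to 90 days with no stated genetic change. Each rat had received 4 doses of normal saline at 1 ml/kg, spaced 2 h apart, had been kept from food and water meanwhile, and was bled by cardiac puncture 3 h after the last dose. The RNA was depleted of globin mRNA, selected for poly(A) and read as pairs of 51 bases on a strand-specific library. With 1 group, there was no treatment to compare, and the subunits were set against each other, against marker genes of the blood cell types and against a code in the file names. The libraries are named below by their number in the labels, from control 1 to control 16.

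Integrins are adhesion receptors made of 1 alpha and 1 beta chain, and a chain reaches the cell surface only with its partner. Itgb2 (CD18) pairs with Itgal (CD11a) to make LFA-1, which is carried by most leukocytes, with Itgam (CD11b) to make Mac-1 of neutrophils and monocytes, and with Itgax (CD11c). Itgb1 (CD29) pairs with Itga4 to make VLA-4, with Itga5 to make the fibronectin receptor and with Itga6 to make a laminin receptor that platelets also carry. Itgb7 pairs with Itga4 for homing of lymphocytes to the gut and with Itgae (CD103), which binds E-cadherin on epithelium. Kindlins, talin and the small GTPase Rap1 act on the cytoplasmic side of these receptors and switch them to the state that binds ligand.

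Before the results, the libraries that stood apart are given. Total counts ran from 21466776 to 31189549 per library, and the 10 subunits took 0.049% to 0.168% of them. Globin transcripts took 2.96% to 15.5%. The neutrophil, T cell, NK cell and platelet lists had every marker counted in every library, as did 11 of 12 B cell markers, and 8 of 10 monocyte markers. Transcripts of other tissues stood out in 4 libraries. The summed normalized count of 10 liver markers was 463300.0 in control 2 and 21327 in control 8 against a median of 46.8, that of 9 heart muscle markers was 498 in control 10 against a median of 21.8, and that of 4 thymocyte markers was 5770 in control 12 against a median of 33.4, with a fat list of 6527 in the same library against 93.7. Each count below was therefore also made without controls 2, 8, 10 and 12. No 2 libraries agreed within sampling noise (the lowest chi-square per degree of freedom was 48.0). The file names carried 6 codes whose meaning the labels do not give, written here as A (controls 1 to 3), B (4, 5, 7, 8 and 10), C (6 and 9), D (11 to 14), E (15) and F (16).

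The upstream sequence of the subunits called on the neutrophil or platelet level, as far as RefSeq held it, is shown so that the start of each gene stands beside its values. RefSeq held an upstream window for 7 of the 10 subunits, and those of Itgam, Itga5, Itga4, Itgb1 and Itgax follow in the GRCr8 build, each 250 bases long, written 5′ to 3′ along the gene and ending at the base before its annotated start. Capitals mark the letters GAGGAA on either strand, the core that PU.1, an Ets factor of myeloid cells, binds.
Itgam, chr1:192089342-192089591, plus strand: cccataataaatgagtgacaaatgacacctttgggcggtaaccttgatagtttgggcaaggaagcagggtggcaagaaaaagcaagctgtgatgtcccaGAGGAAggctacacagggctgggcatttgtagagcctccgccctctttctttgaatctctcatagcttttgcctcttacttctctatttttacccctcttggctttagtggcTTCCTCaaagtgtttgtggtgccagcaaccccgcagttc
Itga5, chr7:136381306-136381555, minus strand: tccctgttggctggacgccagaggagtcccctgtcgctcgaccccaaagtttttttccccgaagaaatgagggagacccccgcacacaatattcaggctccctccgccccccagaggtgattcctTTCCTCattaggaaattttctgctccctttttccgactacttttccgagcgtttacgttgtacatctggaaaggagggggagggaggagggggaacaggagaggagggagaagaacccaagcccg
Itga4, chr3:84569765-84570014, plus strand: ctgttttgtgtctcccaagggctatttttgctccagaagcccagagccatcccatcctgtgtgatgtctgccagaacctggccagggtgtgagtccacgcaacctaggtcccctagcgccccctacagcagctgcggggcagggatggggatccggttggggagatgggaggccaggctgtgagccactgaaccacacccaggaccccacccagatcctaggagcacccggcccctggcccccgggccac
Itgb1, chr19:73602027-73602276, plus strand: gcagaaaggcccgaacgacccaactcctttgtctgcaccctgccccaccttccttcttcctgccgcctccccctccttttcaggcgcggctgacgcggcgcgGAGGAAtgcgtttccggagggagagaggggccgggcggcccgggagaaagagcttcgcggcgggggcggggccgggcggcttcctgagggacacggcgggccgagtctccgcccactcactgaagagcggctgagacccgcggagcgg
Itgax, chr1:192149799-192150048, plus strand: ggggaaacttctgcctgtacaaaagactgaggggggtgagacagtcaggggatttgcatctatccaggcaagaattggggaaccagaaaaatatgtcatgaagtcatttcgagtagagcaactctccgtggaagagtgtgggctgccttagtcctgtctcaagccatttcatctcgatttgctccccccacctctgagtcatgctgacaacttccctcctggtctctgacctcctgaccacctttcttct
The GAGGAA letters stood at 2 places in the Itgam window, beginning at positions -151 and -39 counted from the annotated start, and at 1 place each in those of Itga5 and Itgb1. The Itgae window also held them once, and those of Itgax, Itga4 and Itgb7 did not. Of all 33469 windows of this length, 23.3% held GAGGAA, against 4 of the 7 windows of members. The letters GGGCGG of the GC box stood at 4 places in the Itgb1 window, 2 in that of Itgam and 1 in that of Itga5, and 30.5% of all windows held them. The letters AGATAA, read by GATA factors, were in the Itgae window alone among the 7, and in 10.3% of all windows. Itgam, Itgax and Itgad, a further alpha chain of Itgb2, were neighbours on chromosome 1 of this build, on which Itgal also lies.

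All 10 subunits were counted in all 16 libraries, and their rounded counts ran from 35 (Itgae) to 11828 (Itgb2). Counts of different genes are not compared as levels, since they grow with transcript length and lengths were not used here. Values are counts divided by DESeq2 size factors, called normalized counts. The median coefficient of variation of the 10 subunits was 31.9%, and that of the 8672 genes with a mean normalized count of at least 100 was 24.8%.

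The Itgb2 group was read first. Itgb2, the shared beta chain of leukocytes, had a normalized count of 6551 ± 2067 (SD, n = 16), with 2890.0 in control 12, a median of 6607 and 9429.7 in control 15. Itgal, its LFA-1 partner, had 4797 ± 1230 (SD, n = 16), with 2685 in control 12, a median of 5059 and 7281 in control 14. Itgam, its Mac-1 partner, had 2205 ± 1418 (SD, n = 16), with 573 in control 12, a median of 1707 and 4711 in control 11. Itgam thus spanned 8.22-fold, against 3.26-fold for Itgb2 and 2.71-fold for Itgal, and its coefficient of variation of 64.3% was higher than that of 93.2% of the 8672 genes. Itgax, the CD11c chain of dendritic cells and monocytes, had 1823 ± 458 (SD, n = 16), with 1074 in control 12, a median of 1815 and 2753 in control 16. Control 12, the library with thymocyte and fat transcripts, was the lowest library for all 4 genes of this group.

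The chains that pair with Itgb1 or Itgb7 varied in other libraries. Itgb1, the beta chain of most adhesion receptors to matrix, had 6143 ± 1428 (SD, n = 16), with 3258 in control 10, a median of 6195 and 8609 in control 16, and its coefficient of variation of 23.2% was the lowest of the 10. Itga6, the laminin receptor chain, had 1845 ± 929 (SD, n = 16), with 389 in control 10, a median of 1603 and 3949.7 in control 16. Itga5, the fibronectin receptor chain, had 1097 ± 559 (SD, n = 16), with 425 in control 10, a median of 945 and 2208 in control 8. Control 10 was the lowest library for these 3 genes and for Itgb7, and control 16 the highest for Itgb1, Itga6 and Itgax. Itga4, the VLA-4 chain, had 1335 ± 507 (SD, n = 16), with 660.0 in control 8, a median of 1166 and 2616 in control 6, so the library that was highest for Itga5 was the lowest for Itga4. Itgb7 had 2849 ± 922 (SD, n = 16), with 1731 in control 10, a median of 2585 and 4401 in control 11. Itgae, the CD103 chain, had 81.1 ± 23.1 (SD, n = 16), with 38.9 in control 6, a median of 83.0 and 128 in control 2. Counting error alone would give Itgae a coefficient of variation of 11.2%, against the 28.5% seen, and at most 3.06% in the other 9 subunits.

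**Figure D1:**
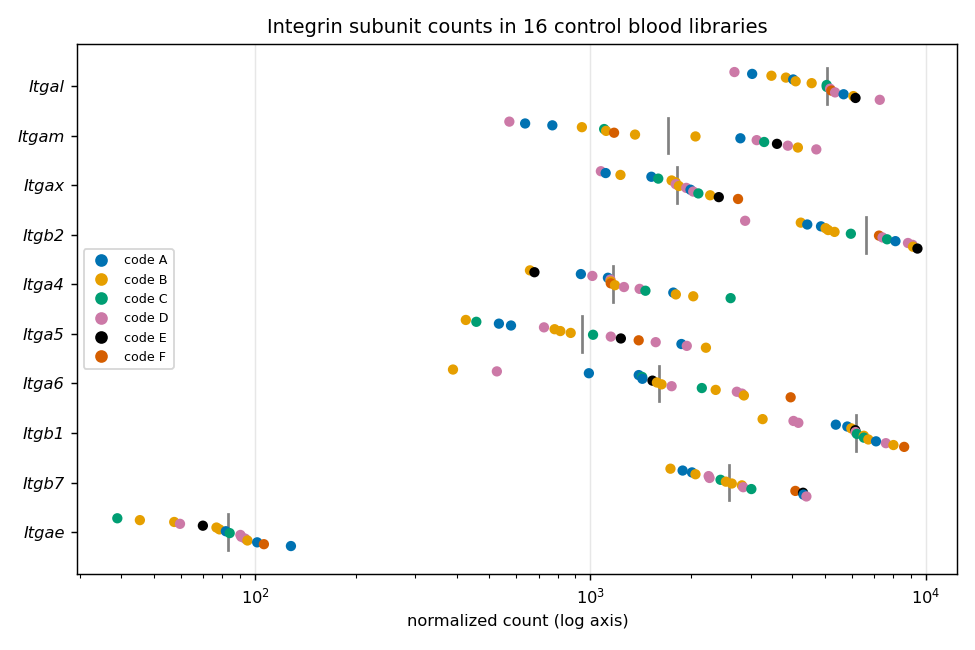
Normalized counts of the 10 integrin subunits in 16 control blood libraries on a log axis. Each point is 1 library, coloured by file code, and the grey line is the median of 16; Itga6 spans 10.1-fold and Itgam 8.22-fold, and Itgb1 2.64-fold.

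The file codes were then compared. Codes A, B and D, with 3 or more libraries each, entered an edgeR quasi-likelihood test over 12 libraries. None of the 10 subunits had an adjusted p under 0.05 in edgeR, and none had an unadjusted p under 0.05; DESeq2 also called 0 of 10. Of all 12952 genes tested, 1.78% were called. The smallest adjusted p by edgeR was 0.63, for Itgae, whose normalized count was 104 ± 23.1 (SD) in the 3 libraries of code A, 70.6 ± 19.4 (SD) in the 5 of code B and 83.7 ± 16.0 (SD) in the 4 of code D. Itgam had 1402 ± 1211 (SD) in code A, 1924 ± 1315 (SD) in code B and 3072 ± 1787 (SD) in code D, and the ranges of all 3 codes overlapped.

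Alpha chains were next set against the beta chain they pair with, over 8 pairs known from the protein complexes. The 3 partners of Itgb2 followed it, and of the 5 pairs of Itgb1 and Itgb7 only Itga6 with Itgb1 had a permutation p under 0.05 over all 16 libraries. On the log2 scale Itgal and Itgb2 had Pearson r = 0.95 and Spearman rho = 0.96 over 16 libraries (permutation p = 1e-05 for each, the smallest that 100000 permutations can give). No gene among the 8671 compared had a higher r with Itgb2 than Itgal. Without controls 5 and 12, farthest from the median of Itgb2, r was 0.91, and it was 0.94 after each code's mean was taken out (14 libraries of codes A to D). For Itgam and Itgb2, r was 0.89 and rho 0.90 (permutation p = 2e-05 and 1e-05), and 99.9% of the genes had a lower r with Itgb2. The within-code r was 0.95, and r was 0.89 without controls 5 and 12. For Itgax and Itgb2, r was 0.72 and rho 0.74 (permutation p = 0.0013 and 0.0015), and 95.3% of the genes had a lower r with Itgb2. It was 0.66 without controls 5 and 12 and 0.75 within codes. Without controls 2, 8, 10 and 12 r was 0.50 (permutation p = 0.098). Itga5, which is not a partner of Itgb2, had r = 0.73 with it, so the Itgax value was not particular to a partner. Both values of a pair carry the same library scaling, which the ratios further down do not.

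The edgeR slope on the log2 level of Itgb2, fitted over all genes and adjusted over all 13021 tested, called 4 of the other 9 subunits, all higher where Itgb2 was higher, against 8.34% of all genes called higher and 4.48% called lower (12.8% in all; with total count scaling the split was 345 higher and 71 lower, against 1086 and 583). Itgam rose by 1.86 ± 0.24 (SE) log2 units per log2 unit of Itgb2 (adjusted p = 0.0012 by edgeR). Itgal rose by 0.76 ± 0.10 (SE) (adjusted p = 0.0012 by edgeR). Itga5, which pairs with Itgb1, rose by 1.07 ± 0.23 (SE) (adjusted p = 0.011 by edgeR), and Itgax by 0.57 ± 0.14 (SE) (adjusted p = 0.020 by edgeR). Itgb7, Itga6 and Itgb1 had slopes of 0.54, 0.94 and 0.29 with adjusted p of 0.075, 0.10 and 0.28 by edgeR. Without controls 2, 8, 10 and 12 only Itgam was still called (1 of 9), with Itgal at 0.70 ± 0.16 (SE) and an adjusted p of 0.0502 by edgeR. With total count scaling 2 were called, and without control 12 alone the adjusted p of Itgax was 0.083 by edgeR.

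**Figure D2:**
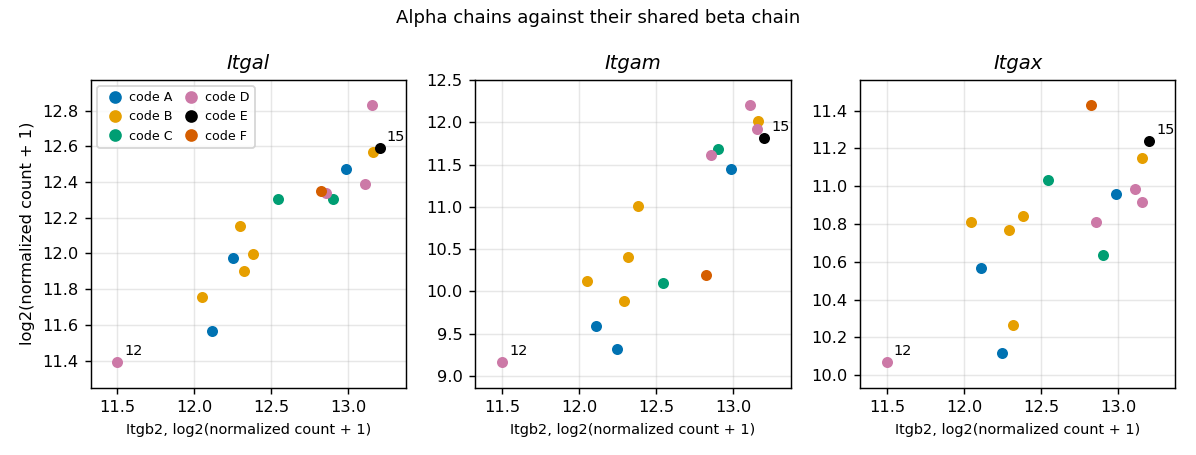
Log2 normalized counts of Itgal, Itgam and Itgax (vertical axes, which differ in range) against Itgb2 (horizontal axis) in 16 libraries, coloured by file code, with controls 12 and 15 numbered. Itgal lies closest to a line (r = 0.95), Itgam has the steepest slope (r = 0.89) and Itgax scatters most (r = 0.72).

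Itga6 and Itgb1 had r = 0.79 and rho = 0.55 (permutation p = 0.00054 and 0.031), with 0.81 within codes and 0.80 without controls 10 and 13, farthest from the median of Itgb1, but 0.54 without controls 2, 8, 10 and 12 (permutation p = 0.069). Itga5 and Itgb1 had r = 0.46 and rho = 0.39 (permutation p = 0.071 and 0.14), and within codes r was 0.60 (permutation p = 0.023). Itga4 and Itgb1 had r = -0.30 and rho = -0.34 (permutation p = 0.26 and 0.19), with -0.46 within codes (permutation p = 0.10). Itga4 and Itgb7 had r = -0.18 and rho = -0.038 (permutation p = 0.49 and 0.89), with 0.015 within codes. Itgae and Itgb7 had r = -0.11 and rho = -0.29 (permutation p = 0.69 and 0.27), with -0.33 within codes (permutation p = 0.25). In the edgeR fit on the level of Itgb1, Itga6 was the 1 subunit of 9 called, at 1.63 ± 0.41 (SE) log2 units per log2 unit (adjusted p = 0.049), against 2.14% of all genes, and without controls 2, 8, 10 and 12 no subunit was called. Leaving out any of 12 single libraries also ended that call, and without control 10 its adjusted p was 0.31 by edgeR. On the level of Itgb7, edgeR called 0 of 9 subunits (2 at an unadjusted p under 0.05, and 0 by DESeq2), against 0.759% of all genes (0.671% higher and 0.0879% lower). Over all 45 pairs of subunits the median r was 0.46, from -0.58 to 0.95, and 28 pairs had a positive r.

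The cell types were read through marker lists, each summarised as the mean log2 normalized count of its members, and none of these lists holds an integrin. A bulk blood sample cannot tell fewer cells of a type from less RNA per cell. The neutrophil level (10 genes such as Csf3r, S100a8 and Cxcr2) ran from 9.93 in control 6 to 14.3 in control 8, and the platelet level (10 genes such as Pf4, Ppbp and Gp9) from 7.94 in control 10 to 12.1 in control 16. The T cell level was narrower, from 9.63 in control 8 to 10.7 in control 4. The neutrophil level was inversely related to the B cell level (r = -0.73, rho = -0.69, adjusted permutation p = 0.021 over 15 pairs of lists). With the T cell level it had r = -0.65 and rho = -0.56 (adjusted permutation p = 0.051). Calls on these lists are therefore not separate readings. Of the 60 relations of a subunit with a marker level, the highest r was that of Itgb1 with platelet markers (0.92). The highest with neutrophil markers was that of Itgam (0.85), with T cell markers Itgae (0.64) and with monocyte markers Itgb2 (0.60). With B cell markers it was Itga4 (0.43, permutation p = 0.094), and with NK cell markers Itgam (0.24, permutation p = 0.38). Negative r were larger in size for T cell (Itgam, -0.72), B cell (Itga5, -0.64) and NK cell markers (Itgb7, -0.45).

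**Figure D3:**
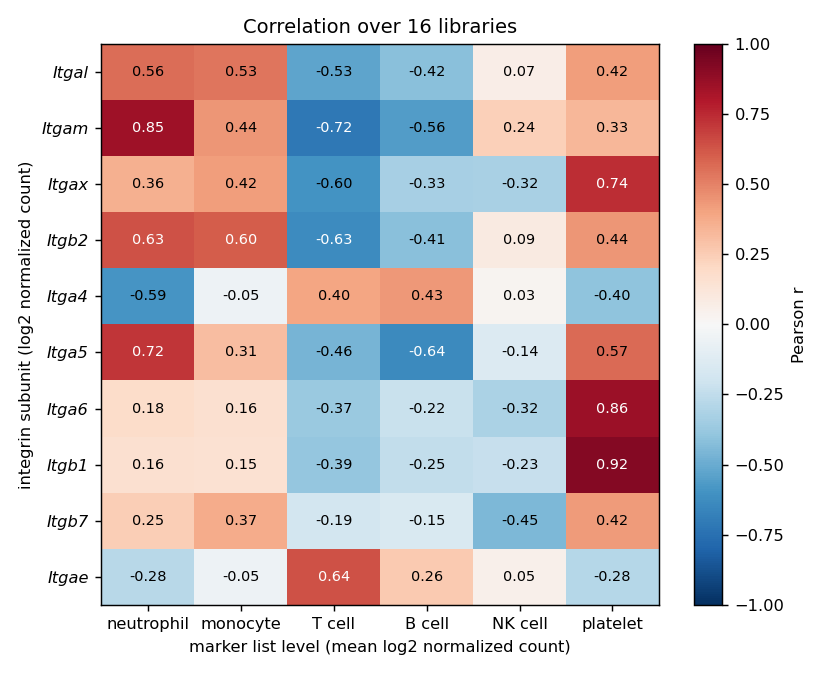
Pearson r over 16 libraries between the log2 normalized count of each integrin subunit (rows) and the level of each marker list (columns), with red for positive and blue for negative r. The highest values are those of Itgb1 and Itga6 with platelet markers (0.92 and 0.86) and of Itgam with neutrophil markers (0.85).

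On the neutrophil level, edgeR called 4 of 10 subunits, 3 higher and 1 lower, while 24.5% of the 12520 genes tested were called (14.6% higher and 9.94% lower; with total count scaling the split was 845 higher and 143 lower, against 1822 and 1245). Itgam was 1098 in control 6, which had the lowest neutrophil level, and 4151 in control 8, which had the highest. It rose by 0.63 ± 0.10 (SE) log2 units per unit of the neutrophil level (adjusted p = 0.00019 by edgeR), with r = 0.85 and rho = 0.85 (permutation p = 0.0001 and 4e-05). Without controls 6 and 8 r was 0.86, and within codes it was 0.83. Itga5 rose by 0.39 ± 0.10 (SE) (adjusted p = 0.0071 by edgeR), with r = 0.72 and rho = 0.73 (permutation p = 0.0022 for r), 0.59 without controls 6 and 8 and 0.81 within codes. Itgb2 rose by 0.22 ± 0.07 (SE) (adjusted p = 0.029 by edgeR), with r = 0.63 and rho = 0.74, 0.64 without those 2 libraries and 0.70 within codes. These are a chain of Mac-1, a chain of the fibronectin receptor and the beta chain that Mac-1 shares with LFA-1.

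Itga4 moved the other way, falling by 0.24 ± 0.08 (SE) log2 units per unit of the neutrophil level (adjusted p = 0.033 by edgeR). Itga4 was 2616 in control 6 and 660.0 in control 8, the libraries at either end of the neutrophil level. Its r of -0.59 (rho = -0.46) was -0.33 without those 2 (permutation p = 0.25) and -0.67 within codes. Without controls 2, 8, 10 and 12, which keeps control 6, r was -0.73 (permutation p = 0.0047). The edgeR call of Itga4 was lost without control 3, 4, 6, 8 or 15. Itgal had a slope of 0.15 ± 0.06 (SE) and did not pass (adjusted p = 0.081 by edgeR). Itgax, Itgb7, Itga6, Itgb1 and Itgae had slopes between -0.11 and 0.09, with adjusted p of 0.32 or more by edgeR. Without controls 2, 8, 10 and 12, the calls were Itgam and Itga4 (2 of 10), and with total count scaling Itgam alone. Control 8 also held liver transcripts, and without that library alone 2 subunits were called, Itgam and Itga5; the same count was left without control 3 or without control 15.

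Ratios of an alpha chain to Itgb2 within a library do not depend on the scaling of libraries, and these 5 ratio relations were chosen after the levels had been seen. The log2 ratio of Itgal to Itgb2 had an SD of 0.18 and spanned 1.53-fold between control 11 and control 12. The ratio of Itgam to Itgb2 had an SD of 0.64 and spanned 4.06-fold, from -2.93 in control 3 to -0.91 in control 11, and that of Itgax to Itgb2 had an SD of 0.34 and spanned 2.04-fold. The ratio of Itgam to Itgb2 rose with the neutrophil level (r = 0.89, adjusted permutation p = 0.0001; rho = 0.86), with 0.89 without controls 6 and 8, 0.88 within codes and 0.88 without controls 2, 8, 10 and 12. The ratio of Itgal to Itgb2 fell with it (r = -0.53, adjusted permutation p = 0.042; rho = -0.56), with -0.65 within codes, -0.64 (permutation p = 0.027) once controls 2, 8, 10 and 12 were left out, and -0.43 (permutation p = 0.12) when only controls 6 and 8 were. The ratio of Itgax to Itgb2 had r = -0.52 (adjusted permutation p = 0.042) but rho = -0.41 (adjusted permutation p = 0.12), -0.63 within codes, -0.50 (permutation p = 0.10) once controls 2, 8, 10 and 12 were left out, and -0.46 (permutation p = 0.096) when only controls 6 and 8 were. Of the 3 partners of Itgb2, the Mac-1 chain was the one whose ratio was higher where neutrophil markers were higher. The ratio of Itgam to Itgal spanned 5.53-fold and also rose with the neutrophil level (r = 0.87, adjusted permutation p = 0.00022; rho = 0.84), with 0.86 without controls 6 and 8 and 0.85 within codes.

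**Figure D4:**
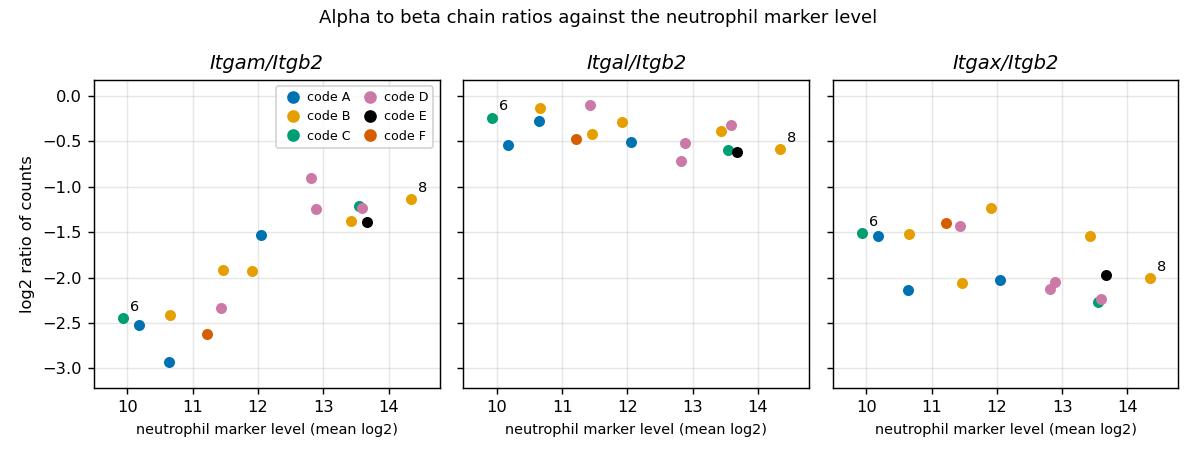
Log2 ratio of the normalized counts of Itgam, Itgal and Itgax to Itgb2 (vertical axis, shared) against the neutrophil marker level (horizontal axis, mean log2 normalized count) in 16 libraries, coloured by file code, with controls 6 and 8 numbered. Itgam/Itgb2 climbs across the range (r = 0.89), while Itgal/Itgb2 stays within 0.62 log2 units.

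On the platelet level, edgeR called 3 of 10 subunits, all higher where platelet markers were higher, against 3.22% of the 13437 genes tested (2.84% higher and 0.38% lower). Itgb1 was 3258 in control 10, which had the lowest platelet level, and 8609 in control 16, which had the highest. It rose by 0.34 ± 0.05 (SE) log2 units per unit of the platelet level (adjusted p = 0.00073 by edgeR), with r = 0.92 and rho = 0.90 (permutation p = 1e-05 for r). Without controls 10 and 12, farthest from the median of the platelet level, r was 0.84, and within codes it was 0.95. Itga6 rose by 0.75 ± 0.14 (SE) (adjusted p = 0.0025 by edgeR), with r = 0.86 and rho = 0.68 (permutation p = 4e-05 for r), 0.63 without those 2 libraries and 0.85 within codes. Itgax rose by 0.28 ± 0.07 (SE) (adjusted p = 0.044 by edgeR), with r = 0.74 and rho = 0.69, 0.68 without the 2 libraries and 0.74 within codes.

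The platelet calls leaned on single libraries to differing degrees. Itgb1 was called whichever single library was left out (adjusted p from 0.0007 to 0.018 by edgeR). With total count scaling Itgb1 was not called (adjusted p = 0.17 by edgeR), and Itga6 alone was (adjusted p = 0.046 by edgeR). Itga6 lost its call without control 10, the library with heart muscle transcripts (adjusted p = 0.064 by edgeR). Itgax lost its call in 14 of the 16 cases (adjusted p up to 0.11 by edgeR). Without controls 2, 8, 10 and 12 together, 0 of 10 subunits were called by edgeR (3 at an unadjusted p under 0.05), with slopes of 0.36 ± 0.13 (SE) for Itgb1, 0.69 ± 0.22 (SE) for Itga6 and 0.40 ± 0.14 (SE) for Itgax. Endothelial cells carry Itgb1 and Itga6 as well, and the summed normalized count of 7 endothelial markers was 881 in control 10 and 1961 in control 16, within a range of 827 to 2015 over all libraries; their part in the platelet relations was not tested. The ratio of Itga6 to Itgb1 spanned 4.01-fold and rose with the platelet level (r = 0.66, adjusted permutation p = 0.0066; rho = 0.54), but r was 0.26 without controls 10 and 12 (permutation p = 0.37), so it rests on them; within codes it was 0.64.

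**Figure D5:**
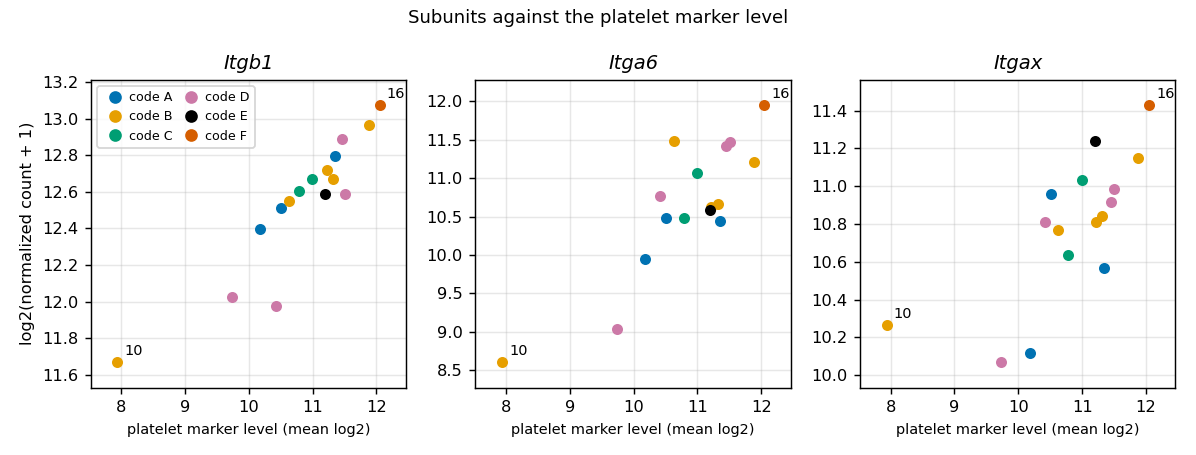
Log2 normalized counts of Itgb1, Itga6 and Itgax (vertical axes, which differ in range) against the platelet marker level (horizontal axis, mean log2 normalized count) in 16 libraries, coloured by file code, with controls 10 and 16 numbered. Itgb1 follows the platelet level closely (r = 0.92), and control 10 sits alone at the low end.

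The lymphocyte and monocyte lists gave fewer calls. On the T cell level, edgeR called Itgam alone of 10 subunits, with a slope of -2.67 ± 0.70 (SE) log2 units per unit (adjusted p = 0.024), against 12.4% of all genes (4.82% higher and 7.59% lower; with total count scaling no gene was called). Its r was -0.72 and its rho -0.64 (permutation p = 0.0023 for r), -0.74 within codes, and the call was lost without control 3, 4, 8 or 12 and without the 4 libraries together (adjusted p = 0.28 by edgeR). Itgae, the chain of intraepithelial T cells, had the highest r with the T cell level of the 10 (r = 0.64, rho = 0.65, 0.55 within codes). Without controls 2, 8, 10 and 12 its r was 0.52 (permutation p = 0.082). Its slope of 0.95 ± 0.35 (SE) did not pass by edgeR (adjusted p = 0.080) but did by DESeq2 (adjusted p = 0.042). Without those 4 libraries its adjusted p was 0.49 by edgeR. On the B cell level, Itga5 alone of 10 was called, falling by 1.12 ± 0.32 (SE) (adjusted p = 0.043 by edgeR), against 8.06% of all genes (3.65% higher and 4.41% lower, or 466 and 563 genes; 193 and 21 with total count scaling), and this call was lost when any of 9 single libraries was left out. On the monocyte level edgeR called 0 of 10 (2 at an unadjusted p under 0.05, Itgb2 and Itgal; 0 by DESeq2), against 0.023% of all genes. Those were 3 genes, all lower, and none of the 13022 tested was called higher. This level spanned 1.08 log2 units. On the NK cell level edgeR called 0 of 10 (0 at an unadjusted p under 0.05; 0 by DESeq2), against 0.0744%. With so few genes called on either level, the lack of calls cannot decide whether the subunits follow these cell types.

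The genes whose log2 counts were most like those of each subunit were listed from 8365 named genes with a mean normalized count of at least 100, the 10 subunits left out, as a description over 16 libraries. The nearest to Itga6 was Itgb3 (r = 0.96), the platelet beta chain of the fibrinogen receptor, followed by Clic4 and Mrvi1 (both r = 0.96). Those nearest to Itgax were Rasa3 (r = 0.92), Vat1 (r = 0.91) and Vwf (r = 0.90), the last of which encodes von Willebrand factor of megakaryocytes and endothelium. Outside the 10 subunits, Itgal and Itgb2 shared their nearest gene, Actn4 (r = 0.92 with each), which encodes an actin crosslinker; the r of 0.95 between Itgal and Itgb2 themselves was higher. Itgam was nearest to Rasgrp4, Csf2rb and Sema4f (r = 0.95 each), of which Csf2rb is the common beta chain of the GM-CSF, IL-3 and IL-5 receptors. Itga5 was nearest to Bcl6, Vim and Tmem43 (r = 0.93 each). Itga4 was nearest to Man1a1 (r = 0.93), Zbtb4 (r = 0.92) and Zbtb25 (r = 0.91). Itgb1 was nearest to Uba7, Muc20 and Cnih2 (r = 0.93 each), Itgb7 to Pip5k1c (r = 0.94) and Pias3 (r = 0.92), and Itgae to Mrpl24, Slc20a1 and Mrpl2 (r = 0.81 each). Itgae had the lowest likeness to its nearest gene of the 10, and also the lowest counts.

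Of the other integrin subunits, a list of 17, the platelet chains had the highest mean counts, which also grow with transcript length. Itga2b, which pairs with Itgb3, had a normalized count of 12375 ± 7039 (SD, n = 16), with 954 in control 10, a median of 11191 and 28921 in control 16. Itgb3 had 1716 ± 801 (SD, n = 16), with 246 in control 10, a median of 1629 and 2824 in control 6. Of 13 tested on the platelet level, these 2 rose and none fell, against 2.84% and 0.38% of all genes, Itga2b by 1.14 ± 0.13 (SE) and Itgb3 by 0.87 ± 0.15 (SE) log2 units per unit (adjusted p = 3.3e-05 and 0.0015 by edgeR), and neither was called without controls 2, 8, 10 and 12. On the level of Itgb2, 1 of 12 rose, near the 8.34% of all genes, and this was Itga8, which was at 0 in 3 libraries and at 441 in control 8, and none was called without the 4 libraries. The alpha chain Itgad, which pairs with Itgb2, had 188 ± 71.3 (SD, n = 16), with 41.3 in control 16, a median of 185 and 334 in control 14. Itga11, a collagen receptor chain, had 469 ± 252 (SD, n = 16), from 209 in control 3 to 1026 in control 10. It was the 1 of 12 tested that was called among file codes (adjusted p = 0.034 by edgeR), against 1.78% of all genes. Without controls 2, 8, 10 and 12, which left 8 libraries, 0 of the 12796 genes tested were called among file codes.

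The genes that switch and anchor integrins formed a list of 26. Those with the highest mean normalized counts were Rap1b (21526 ± 8299, SD, n = 16), Flna (12542 ± 3264, SD, n = 16), the actin linker that binds beta chain tails, Tln1 and Parvb. Of 24 tested on the level of Itgb2, 10 rose and 1 fell by edgeR, against the 8.34% and 4.48% of all genes, and their median slope was 0.52, against -0.05 for all genes. Talin (Tln1), which unlocks the beta chain tail, had 8997 ± 3267 (SD, n = 16), with 4354 in control 12 and 13775 in control 14, and rose by 1.01 ± 0.17 (SE) log2 units per unit of Itgb2 (adjusted p = 0.0033 by edgeR). Apbb1ip (RIAM), which links Rap1 to talin, rose by 1.04 ± 0.16 (SE), and Ptk2b (Pyk2), a kinase downstream of adhesion, by 1.10 ± 0.18 (SE) (adjusted p = 0.0025 and 0.0032 by edgeR). Paxillin (Pxn), a scaffold of adhesion sites, rose by 0.74 ± 0.15 (SE) (adjusted p = 0.0072 by edgeR). Without controls 2, 8, 10 and 12, 1 of 24 was called, and 3 were with total count scaling. On the neutrophil level 7 rose and 1 fell of 24, against 14.6% and 9.94% of all genes; 4 rose and none fell without the 4 libraries, and 1 and none with total count scaling. On the platelet level 7 rose and none fell of 24, against 2.84% and 0.38% of all genes; 1 rose and none fell without the 4 libraries, and 2 and none with total count scaling. The kindlin Fermt1 was at 0 in every library.

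Of 16 genes for integrin ligands, 14 were tested on the level of Itgb2, of which 3 rose and 1 fell by edgeR, against 8.34% and 4.48% of all genes. Without controls 2, 8, 10 and 12, 1 rose and none fell, and with total count scaling none rose and 1 fell. Icam1, the ligand of LFA-1 and Mac-1, had 335 ± 191 (SD, n = 16), with 166 in control 7 and 797 in control 8, and rose by 0.99 ± 0.23 (SE) log2 units per unit of Itgb2 (adjusted p = 0.013 by edgeR). Fn1, fibronectin, the ligand of the Itga5 and Itga4 receptors, had 8382 ± 5316 (SD, n = 16), with 3859 in control 4 and 22869 in control 11, and rose by 1.08 ± 0.30 (SE) (adjusted p = 0.029 by edgeR). Jam2, a ligand of VLA-4, rose by 0.68 ± 0.18 (SE) (adjusted p = 0.023 by edgeR). Thy1 fell by 1.69 ± 0.36 (SE) (adjusted p = 0.0095 by edgeR), and its highest value of 2493, against a median of 153, was that of control 12, the library with thymocyte transcripts. Fgb, a chain of fibrinogen made by liver, had a median of 2.48 and 15693 in control 2, the library with liver transcripts. Madcam1, the gut ligand of Itga4 with Itgb7, was at 0 in every library.

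Counts of the Itgb2 group carry a limit that touched fewer libraries in the other subunits. The deposited values of Itgal and Itgb2 were not whole (within 1e-09) in 16 of 16 libraries, those of Itgax in 15 and those of Itgam in 7. Those of Itga6 and Itgb1 were not whole in 5 libraries each, of Itga4 and Itgb7 in 4 each and of Itga5 in 3. Part of the reads of these genes was thus divided among entries by estimation, while the values of Itgae were whole in all 16. RefSeq gives Itgax as an older symbol of Itgad, and the files list an entry for each, so the Itgax values are those of the entry ENSRNOG00000036703 under its deposited name.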

How the data were processed

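Blood RNA of 16 saline controls was measured by RNA-seq. Per the submitters' processing notes the authors used CASAVA 1.8.2, Bowtie 0.12.9 and RSEM 1.2.0 with the rn5 build. The deposited values are expected counts (estimated counts per gene), used rounded to whole numbers; 19.3% to 27.1% of values per library were not whole. Genes listed for every library (18031) were kept. Marker levels are means of log2(x + 1), x being counts over DESeq2 1.42.0 size factors. Slopes were tested with edgeR 4.0.16 in R 4.3.3 (TMM scaling, filterByExpr, quasi-likelihood F-test, 2-sided) with Benjamini-Hochberg adjustment over all genes tested and a threshold of 0.05; correlations used 2-sided tests of 100000 permutations. Python 3.11.15 and scipy 1.17.1 served the rest. Scripts were tested on simulated data. Alternatives were total count scaling, DESeq2, no filter, file code as a term, and libraries left out. The subunits and lists were chosen with earlier results of these data known. Named were all subunits and, of each list, those with the highest means or smallest p on the Itgb2 level, and the 3 genes of highest r per subunit, of which 1 is not reported here; Itgad, Madcam1 and Fermt1 were added after their values were seen, as were the counts of other lists without 4 libraries and the ratio relations. A count of 3 corresponded to 0.096 to 0.14 CPM. P-values measure the spread between these libraries only. Samples of other treatments were not analysed here.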

Additional observations from a re-analysis of the deposited data

How the results depend on the processing

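Of the 10 subunits, 4 were called on the neutrophil level, against 1 with total count scaling, 2 with file code as a term and 2 without controls 2, 8, 10 and 12; on the T cell level 1 was called, against 0 with total count scaling, 3 by DESeq2, 0 with file code and 0 without those 4 controls; on the B cell level 1, against 0, 2, 2 and 0, and 0 with no filter; on the platelet level 3, against 1 with total count scaling and 0 without the 4 controls. Of 9 subunits, 4 were called on the Itgb2 level, against 2 with total count scaling and 1 without the 4 controls, and 1 on the Itgb1 level, against 0, 2 by DESeq2, 0 with file code and 0 without the 4 controls. The count of pairs with a permutation p under 0.05 fell from 4 to 2 of 8 without the 4 controls. Leaving out 1 library at a time gave 2 to 5 calls on the neutrophil level, 0 to 4 on the T cell level, 0 to 1 on the B cell level, 1 to 3 on the platelet level, 3 to 5 on the Itgb2 level, 0 to 1 on the Itgb1 level, and 0 throughout on the monocyte, NK cell and Itgb7 levels and among file codes. The r of Itga4 with Itgb7, -0.18, was 0.015 within codes. Causes of these shifts were not tested. Calls of Itgam on the neutrophil and Itgb2 levels held under all 5 other settings and each left-out library. Total count scaling moved the median slope of all genes from 0.08 to 0.33 on the T cell level and from 0.06 to 0.30 on the B cell level. Over all genes, the calls over the 5 other settings ran from 988 to 3625 on the neutrophil level (3067 as reported), from 0 to 2293 on the T cell level (1616), from 36 to 1788 on the B cell level (1029), from 0 to 17 on the monocyte level (3), from 0 to 25 on the NK cell level (10), from 78 to 633 on the platelet level (433), from 133 to 2405 on the Itgb2 level (1669), from 0 to 410 on the Itgb1 level (278) and from 0 to 489 on the Itgb7 level (95), and over 4 other settings from 0 to 789 among file codes (230). Without the 4 controls 12 libraries were left, and 8 in the comparison of file codes. No paired analysis was possible because the labels give 1 group. With TMM scaling in place of DESeq2 size factors the median coefficient of variation of the subunits was 32.7%, against 31.9%. Depth limits Itgae most.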
